A study of Mus musculus with 15 samples.

Results

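Matricellular proteins are secreted glycoproteins that lie in the extracellular matrix without being its main structural fibres. They bind integrins and other receptors, growth factors, proteases and collagens, and they are known to be abundant in the growing heart, sparse in the resting adult heart and abundant again in injured or scarring heart. The genes described here were 8 genes of this class and of the adhesive glycoproteins: Postn, Tnc, Sparc, Ccn2 (listed as Ctgf in older annotation), Fn1, Thbs2, Thbs1 and Spp1. Members were the probe sets that the array annotation gives to exactly 1 of these symbols, which gave 6 of the 8 genes and 7 of the 12422 probe sets of the array. Over the whole array 8251 genes have such a probe set. Among the 6 genes, Tnc was read by 2 probe sets and Postn, Sparc, Ccn2, Fn1 and Thbs2 by 1 each. Thbs1, a thrombospondin known to activate latent TGF-beta, had 1 probe set that the annotation also gives to Pald1, and Spp1, which encodes osteopontin, had 0 annotated probe sets, so neither has a value here.

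The series measured heart RNA on 15 one-colour arrays, and an intensity is the brightness of a probe set on a linear scale. The cardiac knockout hearts, called CKO below, carried αMHC-Cre and MAT1 F/F, so that both floxed MAT1 alleles could be deleted where Cre is made. The control littermates carried αMHC-Cre and MAT1 F/+, so both genotypes expressed Cre, and the controls kept 1 wild-type allele. The αMHC promoter drives Cre in cardiomyocytes, whereas the RNA came from heart tissue with all its cell types. The groups were CKO at 4 weeks (5 arrays), control at 4 weeks (3 arrays), CKO at 2 weeks (4 arrays) and control at 2 weeks (3 arrays). Mnat1, the gene for MAT1, is a subunit gene of the kinase that phosphorylates RNA polymerase II, and its brighter probe set read 140.7 to 314.28 on CKO arrays and 85.96 to 243.8 on control arrays at 4 weeks. Those ranges overlapped (log2 difference 0.53 ± 0.47 SE, limma adjusted p = 0.726). The dimmer one read 38.92 to 78.34 and 40.07 to 79.2 (-0.03 ± 0.27, adjusted p = 0.994). At 2 weeks the ranges overlapped too, 73.12 to 296.33 on CKO arrays and 87.89 to 255.04 on control arrays for the brighter probe set, and 23.67 to 52.03 and 41.4 to 86.25 for the dimmer one. No source used here says whether these probes fall inside the floxed segment, so they do not check the labels.

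Clustering on all probe sets divided the arrays into array set 1, with 6 arrays, and array set 2, with 9, which no label mentions. Arrays of the same set correlated at 0.9367 or more, and arrays of different sets at 0.9241 or less. All 4 groups were present in both, and array set 1 was made up of 2 CKO arrays and 1 control array at each age. Relative to array set 2, array set 1 read lower by a log2 difference of -1.27 for Postn, -0.94 for Fn1, -0.67 for Ccn2, -0.54 for Sparc, and -0.24 and -0.60 for the brighter and dimmer Tnc probe sets. The Thbs2 difference between sets was -0.02, and the median over all probe sets was 0.18. Results of a fit with array set as a blocking term are therefore given where they change a call of a member. For the other gene lists they are given for some genes only. By Xist and Y-linked probe sets, 4 of 5 CKO and 1 of 3 control arrays at 4 weeks came from females, as did 1 of 4 CKO and 1 of 3 control arrays at 2 weeks. With array set and inferred sex both in the fit, the same 5 genes that passed the test at 4 weeks still passed it, with the Postn difference at 2.88.

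The upstream sequences of the measured genes are shown first, because 5 of these genes shared a direction at 4 weeks and Thbs2 did not. RefSeq windows on GRCm38.p6 were at hand for 4 of the 6 measured genes, 6 windows in all because Postn and Tnc have 2 annotated starts each. The 5 printed below give the 250 bases before the start, 5′ to 3′ on the gene's strand, with capitals for TATAAA or CAGAC on either strand (written as found on this strand, so that TTTATA and GTCTG are the same motifs on the other one).
Postn start 1, chr3:54359017-54359266, plus strand: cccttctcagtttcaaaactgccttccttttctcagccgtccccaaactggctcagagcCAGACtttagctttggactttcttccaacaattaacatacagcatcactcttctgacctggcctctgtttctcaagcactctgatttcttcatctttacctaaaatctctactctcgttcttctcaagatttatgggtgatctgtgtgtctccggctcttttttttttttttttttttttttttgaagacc
Postn start 2, chr3:54360857-54361106, plus strand: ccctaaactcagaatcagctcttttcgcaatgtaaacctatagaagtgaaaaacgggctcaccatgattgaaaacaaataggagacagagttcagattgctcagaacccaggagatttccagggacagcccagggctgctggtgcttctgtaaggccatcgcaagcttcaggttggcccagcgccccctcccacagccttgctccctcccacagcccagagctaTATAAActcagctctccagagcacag
Tnc start 1, chr4:64047016-64047265, minus strand: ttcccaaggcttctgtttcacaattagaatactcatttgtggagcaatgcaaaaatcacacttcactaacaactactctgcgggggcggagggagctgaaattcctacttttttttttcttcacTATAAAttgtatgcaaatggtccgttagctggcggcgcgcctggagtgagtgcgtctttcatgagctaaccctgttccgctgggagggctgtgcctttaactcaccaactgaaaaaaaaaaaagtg
Sparc, chr11:55420081-55420330, minus strand: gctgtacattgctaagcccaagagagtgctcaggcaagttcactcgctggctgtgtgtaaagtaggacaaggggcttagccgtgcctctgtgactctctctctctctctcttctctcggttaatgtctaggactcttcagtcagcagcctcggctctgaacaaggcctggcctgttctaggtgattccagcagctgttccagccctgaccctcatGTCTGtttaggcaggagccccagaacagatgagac
Thbs2, chr17:14694263-14694512, minus strand: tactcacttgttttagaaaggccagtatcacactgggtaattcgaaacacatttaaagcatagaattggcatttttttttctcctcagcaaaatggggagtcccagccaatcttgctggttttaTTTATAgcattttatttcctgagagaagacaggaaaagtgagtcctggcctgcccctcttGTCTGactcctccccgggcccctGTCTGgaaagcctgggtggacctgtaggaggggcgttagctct

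TATAAA, the core of the TATA box, stood 26 bases before the downstream Postn start and 126 bases before the Tnc start shown, and it lay on the other strand 126 bases before the Thbs2 start. It occurred in 12.4% of 32851 mouse windows of this length. CAGAC, the short DNA word of SMAD proteins, occurred once before the upstream Postn start, at 191 bases, and once before the Sparc start, at 35 bases. It also stood 70 bases before the second Tnc start, whose overlapping window is not printed and holds the same TATAAA at 205 bases. Only the exact letters were searched, so near variants of TATAAA, such as the TATATAAG close to that second Tnc start, were not counted. CAGAC occurred at 66 and 43 bases before the Thbs2 start, and 42.2% of all windows hold it. The AP-1 word TGANTCA (in 6.75% of all windows), the TEAD word GGAATG (12.6%) and the CArG box (1.47%) had no match in any of the 6 windows. Thus the letters searched did not divide Thbs2 from Postn, Tnc and Sparc. Fn1 and Ccn2 had no window, and with Thbs2 alone on the other side such a search could not tie letters to direction.

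At 4 weeks, CKO hearts had more RNA of 5 of the 6 measured genes than control hearts: Postn was 8.15-fold higher, Tnc 4.13-fold, Ccn2 3.64-fold, Fn1 3.41-fold and Sparc 1.95-fold. Every CKO array lay above every control array for these 5 genes, and Thbs2 was the exception on both counts. A gene is called when its limma adjusted p over all 12422 probe sets is under 0.05, and folds are taken on the log2(intensity + 16) scale, which understates changes of dim probe sets. By that rule 6.27% of all probe sets were called at 4 weeks, 479 higher and 300 lower in CKO (365 and 410 after quantile normalization), against 5 of 6 genes here. Groups were apart in either direction for 12.9% of all probe sets. In heart tissue, more cells of a type and more RNA per cell cannot be told apart.

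Postn encodes periostin, a secreted protein with fasciclin domains that activated cardiac fibroblasts are known to make. Its intensity was 2697, 2434, 4630.0, 5189.8 and 4929.6 on the CKO arrays at 4 weeks, against 390.2, 425, and 551 on the control arrays. The lowest CKO array was still far above the highest control array, and the lower pair of CKO arrays were those of array set 1. The group means were 3976 ± 1310 in CKO (SD, n = 5) and 455.3 ± 84.5 in control hearts (SD, n = 3), a log2 difference of 3.03 ± 0.54 (SE, limma adjusted p = 0.00328). In the order from most lowered to most raised, 99.91% of all probe sets stood below it. The difference was 2.67 within array set 1 and 3.30 within array set 2. At 2 weeks the intensity was 3290.5, 3241, 688 and 768 on the CKO arrays, against 2749, 2164 and 820.4 on the control arrays. The groups overlapped there, and the low arrays of both genotypes belonged to array set 1 (log2 difference -0.13 ± 0.56, adjusted p = 1).

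Tnc encodes tenascin-C, a large anti-adhesive matrix glycoprotein that is known to appear transiently in developing and remodelling heart. Its brighter probe set read 221, 171, 369, 182 and 340.3 on the CKO arrays at 4 weeks, against 55.3, 41.0 and 45.8 on the control arrays. No CKO array came near the control range, and the log2 difference was 2.05 ± 0.25 (adjusted p = 0.000229). The dimmer probe set, whose name ends in the array maker's suffix f for probes that may match related sequences, read 177, 148, 255, 131 and 207 on the CKO arrays and 16.1, 17.7 and 10.6 on the control arrays. It differed in the same direction, by 2.67 ± 0.37 (adjusted p = 0.000547). Both probe sets are dim, at the 37.8th and 23rd percentile of mean brightness on this array, and the control values of the dimmer one lie near the pseudocount of 16, so that its fold of 6.36 is on a compressed scale. At 2 weeks the brighter probe set read 121, 148, 92.3 and 101 on the CKO arrays, against 116, 83.0 and 99.6 on the control arrays, with overlapping groups (0.18 ± 0.26, adjusted p = 1).

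**Figure D1:**
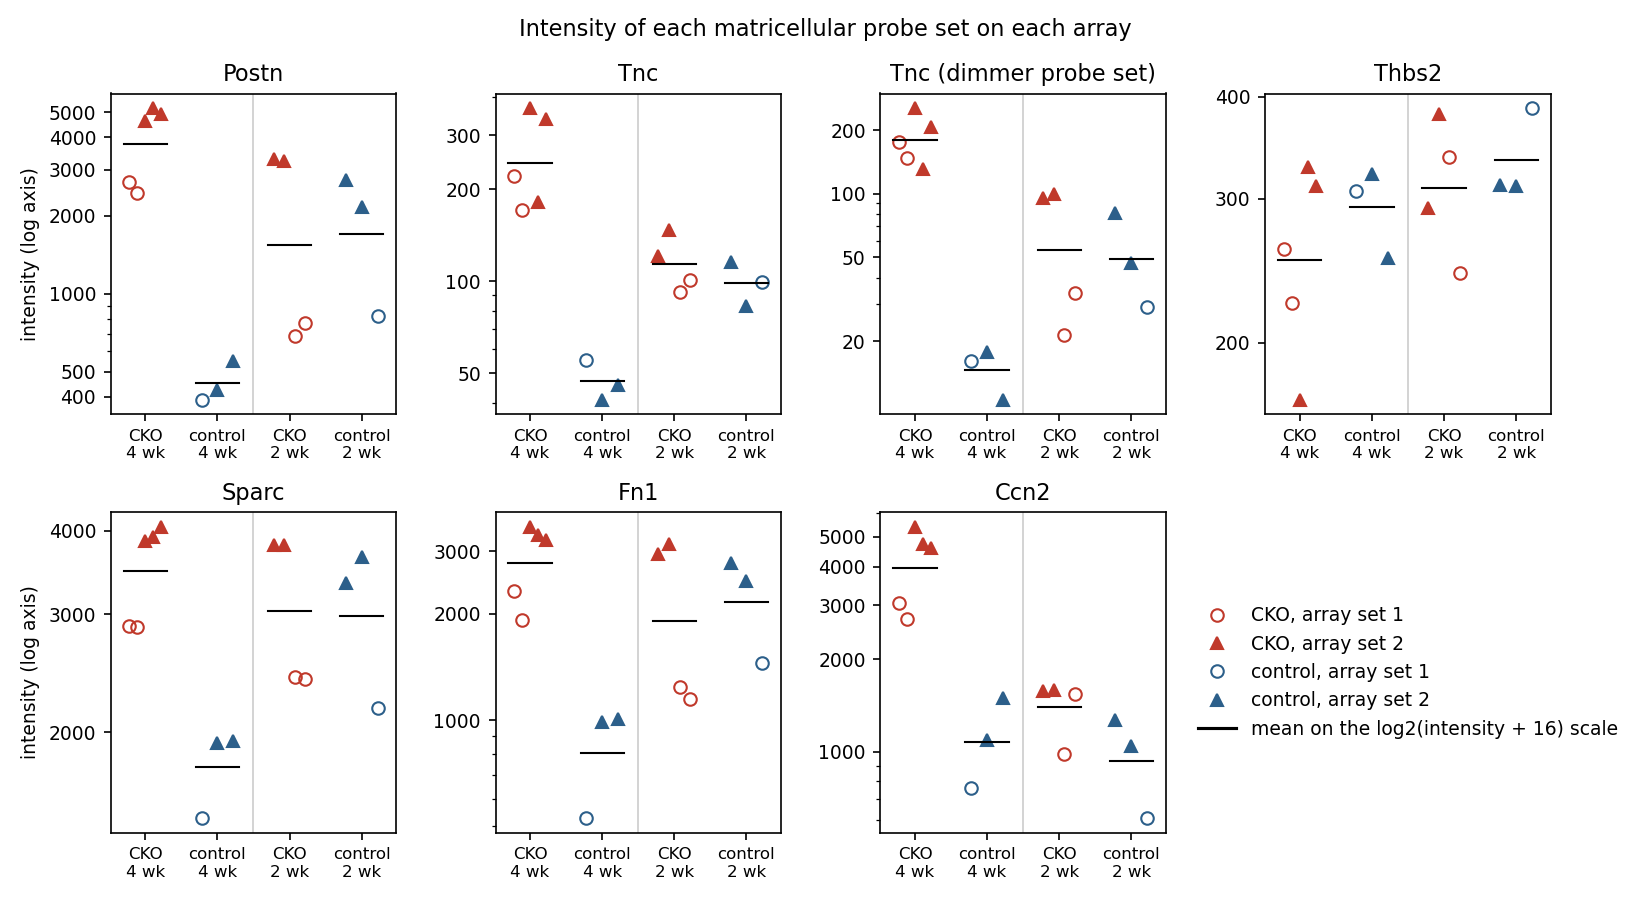
Intensity of each of the 7 probe sets on each of the 15 arrays (log axis), by group, with open circles for array set 1, filled triangles for array set 2 and a line at the group mean taken on the log2(intensity + 16) scale. At 4 weeks the CKO arrays lie above all control arrays in every panel but Thbs2, for example 2434 to 5189.8 against 390.2 to 551 for Postn, and at 2 weeks the genotypes overlap in every panel.

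Ccn2 encodes connective tissue growth factor, a cysteine-rich secreted protein known as a transcriptional target of TGF-beta and of YAP with TEAD. It read 3039, 2706, 5406, 4735 and 4588 on the CKO arrays at 4 weeks, against 759, 1089.7 and 1492 on the control arrays. The CKO range began well above the end of the control range, with means of 4095 ± 1160 in CKO (SD, n = 5) and 1114 ± 367 in control hearts (SD, n = 3). The log2 difference was 1.87 ± 0.29 (adjusted p = 0.00149) and nearly alike in the array sets, at 1.90 and 1.93. At 2 weeks it read 1571, 1584, 986 and 1542 on the CKO arrays, against 1266, 1039 and 607 on the control arrays. The lowest CKO array fell inside the control range, although in each array set all CKO arrays lay above all control arrays. How many of all probe sets had such an order within both array sets was not counted. The 2-week difference of 0.58 ± 0.31 was not called (adjusted p = 1), nor was it with the array set as a block, when it was 0.69 ± 0.15 (adjusted p = 0.238).

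Fn1 encodes fibronectin, the adhesive glycoprotein that cells bind through integrins and on which other matrix proteins assemble. Its intensity was 2313, 1916, 3526, 3343 and 3231 on the CKO arrays at 4 weeks, against 528, 985 and 1009.6 on the control arrays. The groups were apart, with a log2 difference of 1.77 ± 0.37 (adjusted p = 0.00901), and the difference was 1.96 within array set 1 and 1.74 within array set 2. At 2 weeks it read 2952, 3147, 1241 and 1150.5 on the CKO arrays, against 2773, 2475 and 1450.3 on the control arrays. These overlapped, with low arrays of both genotypes in array set 1 (-0.17 ± 0.38, adjusted p = 1).

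Sparc encodes a collagen-binding, calcium-binding matricellular protein also called osteonectin, and it was the brightest member, at the 98.1st percentile. It read 2881, 2874, 3860.1, 3917 and 4057 on the CKO arrays at 4 weeks, against 1488, 1926 and 1941 on the control arrays. Its change was the smallest of the 5 called, 0.97 ± 0.21 (adjusted p = 0.0133), and the within-set differences were 0.94 and 1.02. Without the first control array at 4 weeks it was 0.84 and no longer called (adjusted p = 0.0587), and after median scaling of the arrays it was 0.88 (adjusted p = 0.119). At 2 weeks it read 3808, 3814, 2417 and 2404 on the CKO arrays, against 3338, 3652 and 2172 on the control arrays, and the groups overlapped (0.02 ± 0.22, adjusted p = 1).

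Thbs2 encodes thrombospondin-2, an anti-angiogenic matricellular protein whose loss is known to weaken the mouse heart matrix. It read 261, 223, 170.3, 328 and 311 on the CKO arrays at 4 weeks, against 306, 322 and 254 on the control arrays. The groups overlapped widely, and the log2 difference was -0.20 ± 0.21 (95% interval -0.65 to 0.25, adjusted p = 0.796). At 2 weeks it read 293, 381, 337 and 243 on the CKO arrays and 312, 311 and 387 on the control arrays, again overlapping (-0.11 ± 0.22, adjusted p = 1). Its interval at 4 weeks ends below those of the 5 called genes, of which the lowest bound is 0.51 for Sparc. The difference between Thbs2 and the other genes was not tested.

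At 2 weeks, none of the 6 genes was called between CKO and control hearts, and in the fit without a block none had an unadjusted limma p under 0.05. The background there was low as well, with 0.00805% of all probe sets called (1 probe set) and 129 with an unadjusted p under 0.05. The 95% intervals were wide for the genes that the array sets split, -1.34 to 1.07 for Postn and -0.99 to 0.65 for Fn1. With array set as a block they narrowed to -0.48 to 0.63 for Postn, -0.28 to 0.25 for Fn1 and -0.03 to 0.26 for Sparc, each of which excludes the size of that gene's difference at 4 weeks. The blocked interval of Ccn2 was 0.37 to 1.02, above 0, with an unadjusted limma p of 0.000364 that did not pass adjustment over all probe sets (0.238). In that fit 0 of 6 were called at 2 weeks, against 0.0564% of all probe sets.

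**Figure D2:**
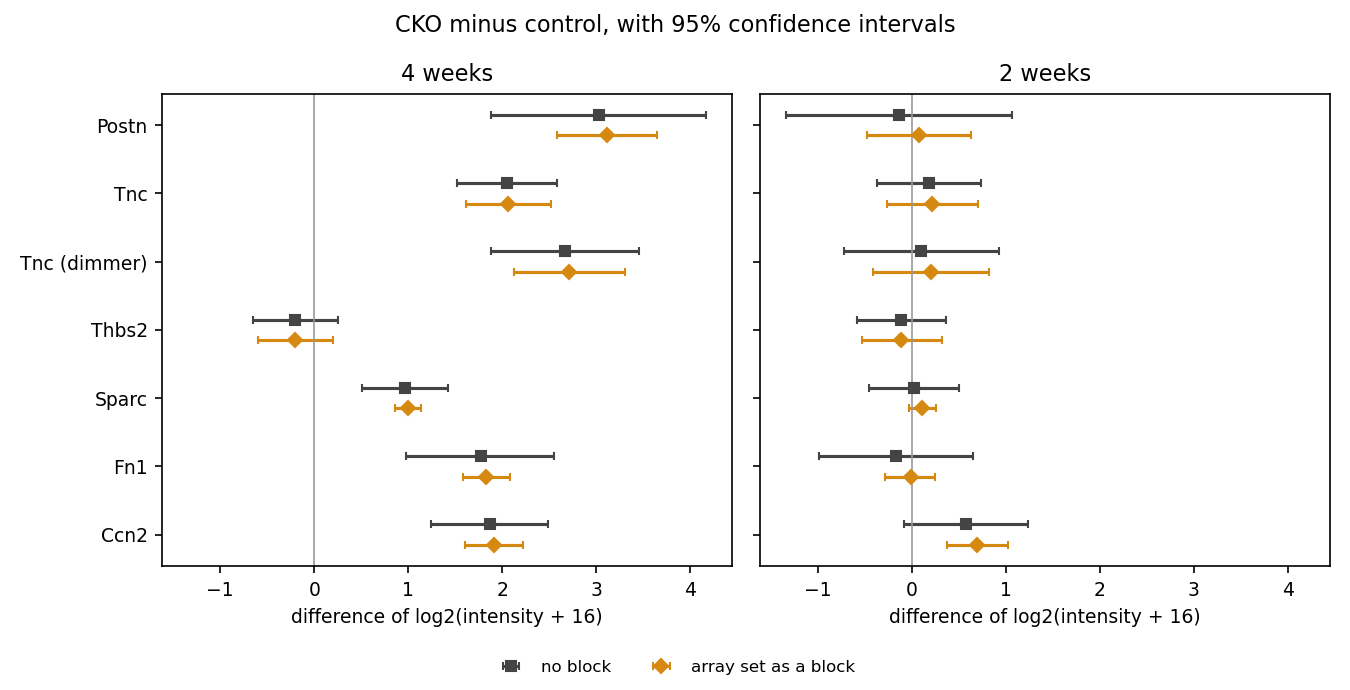
Log2 differences of CKO minus control for each probe set, with 95% confidence intervals, at 4 weeks (left) and 2 weeks (right), from the fits without (squares) and with (diamonds) the array set as a block. At 4 weeks all intervals but that of Thbs2 lie above 0, from Sparc at 0.97 to Postn at 3.03, and at 2 weeks all intervals without the block include 0.

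Whether the effect of genotype differed between the ages was tested as the 4-week difference minus the 2-week difference. Tnc was called, at 1.87 ± 0.36 (adjusted p = 0.0339), and its dimmer probe set also passed, at 2.56 ± 0.53 (adjusted p = 0.0488). That made 1 of 6 genes, against 0.531% of all probe sets. The Tnc call rests on most arrays at once: it was lost when any 1 of 11 of the 15 arrays was left out, with the difference between 1.73 and 1.99 and adjusted p up to 0.136 over all 15 omissions. The 4 arrays that could be left out with the call kept were CKO replicates 2 and 4 and control replicate 1 at 4 weeks, and CKO replicate 2 at 2 weeks. It was also lost with quantile normalization (adjusted p = 0.0613), median scaling (0.121) and a pseudocount of 64 (0.056). The call of the dimmer probe set was lost with quantile normalization too (limma adjusted p = 0.0923). Postn had the largest value, 3.16 ± 0.78, but an adjusted p of 0.107.

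With the array set as a block, 5 of 6 genes were called for this difference, against 5.5% of all probe sets, and Thbs2 was again the exception. The values were 3.03 ± 0.36 for Postn (adjusted p = 0.000135), 1.85 ± 0.17 for Fn1 (1.58e-05), 1.84 ± 0.31 for Tnc (0.00209), 1.22 ± 0.21 for Ccn2 (0.00254) and 0.89 ± 0.10 for Sparc (6.8e-05). The Thbs2 value was -0.10 ± 0.27 (adjusted p = 0.911). In proportion the block lowered the errors most for Fn1 and Sparc, and it moved no estimate by more than its own unblocked error. In the same fit at 4 weeks the 5 genes that had been called were called again, against 22.2% of all probe sets.

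Within CKO hearts, Ccn2 and Tnc rose with age. Ccn2 averaged 4095 ± 1160 at 4 weeks (SD, n = 5) and 1421 ± 291 at 2 weeks (SD, n = 4), a 2.81-fold difference with no overlap of the arrays (log2 1.49 ± 0.27, adjusted p = 0.00611). Tnc averaged 256.7 ± 91.8 at 4 weeks (SD, n = 5) and 115.6 ± 24.6 at 2 weeks (SD, n = 4), likewise without overlap (1.00 ± 0.23, adjusted p = 0.0248). Postn had a difference of 1.28 ± 0.49 (95% interval 0.23 to 2.34) that did not pass adjustment (0.244). The called genes were 2 of 6, against 3.33% of all probe sets. How many of all probe sets had no overlap between the ages was not counted. The Tnc call was lost without CKO replicate 1, 3 or 4 at 2 weeks or CKO replicate 3 or 5 at 4 weeks, with differences down to 0.86 and adjusted p up to 0.0882, and with median scaling (adjusted p = 0.058). With the array set as a block, 4 of 6 genes were called, against 14.3% of all probe sets: Ccn2 (1.43 ± 0.13), Postn (1.16 ± 0.23, adjusted p = 0.00232), Tnc (0.98 ± 0.20) and Fn1 (0.45 ± 0.11, adjusted p = 0.00918). Within array sets 1 and 2 the difference was 1.79 and 0.59 for Postn, and 0.81 and 0.14 for Fn1. Sparc was 0.14 ± 0.06 in that fit (adjusted p = 0.148).

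Within control hearts no gene was called in the fit without the block, and Postn, Fn1, Sparc and Tnc had lower values at 4 weeks than at 2 weeks on every array. Postn averaged 455.3 ± 84.5 at 4 weeks and 1911 ± 989 at 2 weeks (SD, n = 3 each), and the arrays did not overlap (log2 -1.88 ± 0.60, adjusted p = 0.43). Fn1 averaged 840.7 ± 271 at 4 weeks and 2233 ± 694 at 2 weeks (SD, n = 3 each), also apart (-1.40 ± 0.41, adjusted p = 0.331). Sparc (-0.75 ± 0.24) and Tnc (-0.86 ± 0.28) were apart as well, both with an adjusted p of 0.434. In all, 0 of 6 genes were called by limma, against 0.338% of all probe sets. These 4 genes had an unadjusted limma p under 0.05, as did 672 of all 12422 probe sets. The share of all probe sets without overlap of the arrays was not counted for this comparison, so the separation has no background beside it. With the array set as a block, 3 of 6 were called, all lower at 4 weeks, against 2.97% of all probe sets. They were Fn1 (adjusted p = 3.64e-05), Sparc (5.78e-05) and Postn (0.00111), with the same estimates, and Tnc was at 0.0666. For Ccn2 the difference was 0.21 ± 0.33 (adjusted p = 1), with overlapping arrays.

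**Figure D3:**
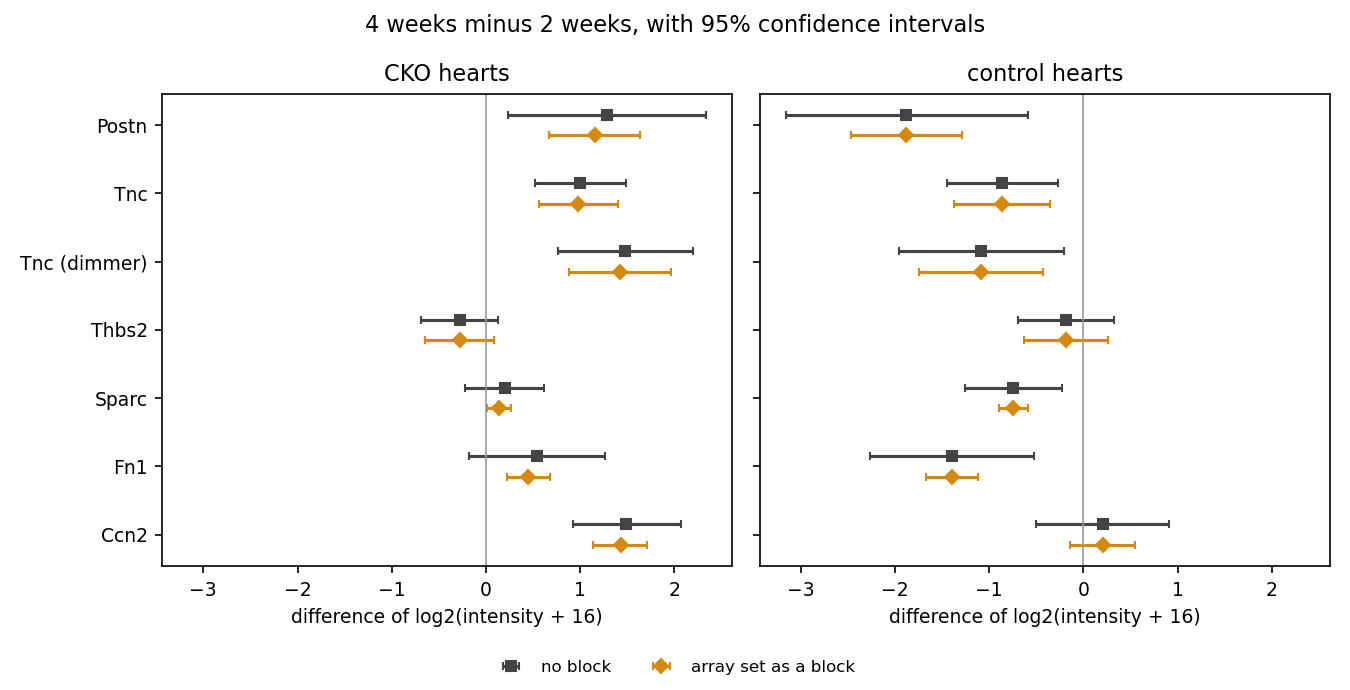
Log2 differences of 4 weeks minus 2 weeks for each probe set, with 95% confidence intervals, within CKO hearts (left) and control hearts (right), from the fits without (squares) and with (diamonds) the array set as a block. Ccn2, Postn and Tnc lie above 0 in CKO hearts at 1.49, 1.28 and 1.00, of which Postn was not called without the block, and Postn, Fn1, Tnc and Sparc lie below 0 in control hearts, at -1.88, -1.40, -0.86 and -0.75.

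These age differences gave the genes different orders of level over the 4 groups. CKO hearts at 4 weeks had the highest mean for Postn, Tnc, Sparc, Fn1 and Ccn2. For Postn, Sparc and Fn1 the 2-week groups came next, close to each other within their spread, and control hearts at 4 weeks were lowest. For Ccn2 the other 3 groups overlapped, with means of 1114 in control hearts at 4 weeks, 1421 in CKO hearts at 2 weeks and 970.7 in control hearts at 2 weeks. Within each array set the 2-week CKO arrays lay above the 2-week control arrays, an order whose share over all probe sets was not counted. For Thbs2 all 4 group means lay within the spread of their neighbours, with 258.7 ± 64.4 in CKO hearts and 294.1 ± 35.5 in control hearts at 4 weeks, and 313.6 ± 59.2 in CKO hearts and 336.8 ± 43.8 in control hearts at 2 weeks. In a comparison added after the values were seen, CKO hearts at 4 weeks were set against control hearts at 2 weeks. Ccn2 (2.07 ± 0.29, adjusted p = 0.000894) and Tnc (1.19 ± 0.25, adjusted p = 0.0116) were called, without overlap of the arrays, and 4.93% of all probe sets were called. The share without overlap over all probe sets was not counted here. Postn was 1.15 ± 0.54 (adjusted p = 0.346), Fn1 0.37 ± 0.37 (0.862) and Sparc 0.22 ± 0.21 (0.853). With the array set as a block, when 18.9% of all probe sets were called, those 3 genes were called as well, at 1.23 ± 0.25, 0.43 ± 0.12 and 0.26 ± 0.07. These comparisons share groups with the ones above and are not independent of them.

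Likeness between members is given as a description over all arrays, group differences included. Over the 15 arrays Pearson's r of the log2 values was 0.977 between Sparc and Fn1, 0.963 between Postn and Fn1 and 0.952 between Postn and Sparc. Tnc had an r of 0.854 with Postn and 0.821 with Ccn2, and with the array-set means removed these were 0.907 and 0.836. The r of Ccn2 was 0.755 with Postn, 0.655 with Fn1 and 0.644 with Sparc. Thbs2 had an r of -0.548 to -0.091 with the other 5 genes. All points share the group and array-set differences described above. Among the brightest 60% of probe sets, the gene most like Postn was Col1a2, a chain gene of type I collagen (r = 0.995, also 0.995 with the array-set means removed), followed by Itih5 and Kdelr3 (both 0.976). Sparc was most like Slc44a1 (0.979) and Col3a1 (0.978 and 0.967 for its 2 probe sets), and Fn1 most like Itih5 (0.976), Ppic (0.969) and Capza1 (0.964). Ccn2 was most like Dohh (0.975), Wipi2 (0.971) and Col8a1 (0.97), and Tnc most like Rab31 (0.955), Rac1 and Drg1 (both 0.952). The nearest genes to Thbs2 were less close, Rps24 at 0.78, Pgm1 at 0.748 and Rsrp1 at 0.687.

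The wider matricellular system also leaned to higher values in CKO hearts at 4 weeks. The 20 measured genes among 27 other matricellular and matrix-associated genes listed had a median log2 difference of 0.34, against 0.07 over all probe sets. Of them 7 were called higher and 0 lower, against 6.27% of all probe sets called. They included Fbln2, a fibulin of elastic and basement membrane matrix (1.43 ± 0.20, adjusted p = 0.000547), Mgp, an inhibitor of calcification (1.25 ± 0.17, 0.000601), Tgfbi, the close relative of Postn (1.61 ± 0.29, 0.00328), and Thbs3, a further thrombospondin (0.91 ± 0.21, 0.0198). None of these 20 was called at 2 weeks, when their median was 0.08. With array set in the fit at 4 weeks 10 were higher and 0 lower, against 22.2% of all probe sets.

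Among 22 measured receptors of these proteins, 5 were higher and 1 was lower at 4 weeks, against 6.27% of all probe sets called, with a median of 0.20. Among the 5 were the integrin subunits Itgav at 1.22 ± 0.14 (adjusted p = 0.000143) and Itga5 at 1.39 ± 0.27 (0.00541). The other integrin subunits of the list were not called in the fit without the block. Among them were Itgb5 (0.92 ± 0.29), Itgb1 (0.26 ± 0.08), Itga4 (0.06 ± 0.35) and Itgb3 (-0.39 ± 0.34). Also higher were the endocytic receptor Lrp1 at 0.85 ± 0.15 (0.00297) and the syndecan Sdc2 at 0.64 ± 0.15 (0.0207). The 1 receptor that fell was Cd36, known as a thrombospondin receptor and as a fatty acid transporter of cardiomyocytes (-0.93 ± 0.25, adjusted p = 0.0398). It was named after its value was seen. With array set in the fit 8 receptors were higher and 1 lower, against 22.2% of all probe sets. Among the 8 were also Itgb5 (0.96 ± 0.11, adjusted p = 1.33e-05) and Itgb1 (0.26 ± 0.07, 0.00939). Of 16 focal adhesion proteins 2 were called at 4 weeks, both higher, against the same 6.27% of all probe sets: Csrp1, a LIM protein of actin bundles (1.70 ± 0.33, 0.00575), and the actin crosslinker Actn1 (0.78 ± 0.20, 0.0331). The differences for Vcl, 0.57 ± 0.18, and Tln1, 0.30 ± 0.11, were not called without the block. With array set in the fit both were called (adjusted p = 0.00179 and 0.0221). In that fit 5 focal adhesion proteins were higher and 1 lower, against 22.2% of all probe sets.

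Of 23 regulators of these genes 3 were higher and 0 lower at 4 weeks, against 6.27% of all probe sets called, with a median of 0.23. With array set in the fit 5 were higher and 2 lower, against 22.2% of all probe sets. Tgfb2 (3.27 ± 0.32, adjusted p = 5e-05) and Tgfb3 (2.42 ± 0.29, 0.000232), ligands of the TGF-beta pathway, and Smad7, its inhibitor (0.71 ± 0.19, 0.0361), made up the 3. Without the block Tgfb1 at 0.65 ± 0.20 was not called (0.0738), and with array set in the fit it was called higher (0.67 ± 0.14, 0.00207). In that fit Wwtr1 was also called higher (0.68 ± 0.09, adjusted p = 3.51e-05). The 2 lower there were Tead1 (-0.47 ± 0.14, 0.0245) and Prrx1 (-0.44 ± 0.15, 0.0452). Of 17 proteases and inhibitors that cut or guard the matrix 5 were higher and 0 lower, against that 6.27%, with a median of 0.38. The protease inhibitors Timp1 (1.76 ± 0.29, adjusted p = 0.0019) and Timp2 (1.09 ± 0.14, 0.000416) and the cathepsins Ctsl (0.86 ± 0.15, 0.00264) and Ctsb (0.43 ± 0.11, 0.0291) were among them. At 2 weeks 0 genes of any of these lists were called.

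**Figure D4:**
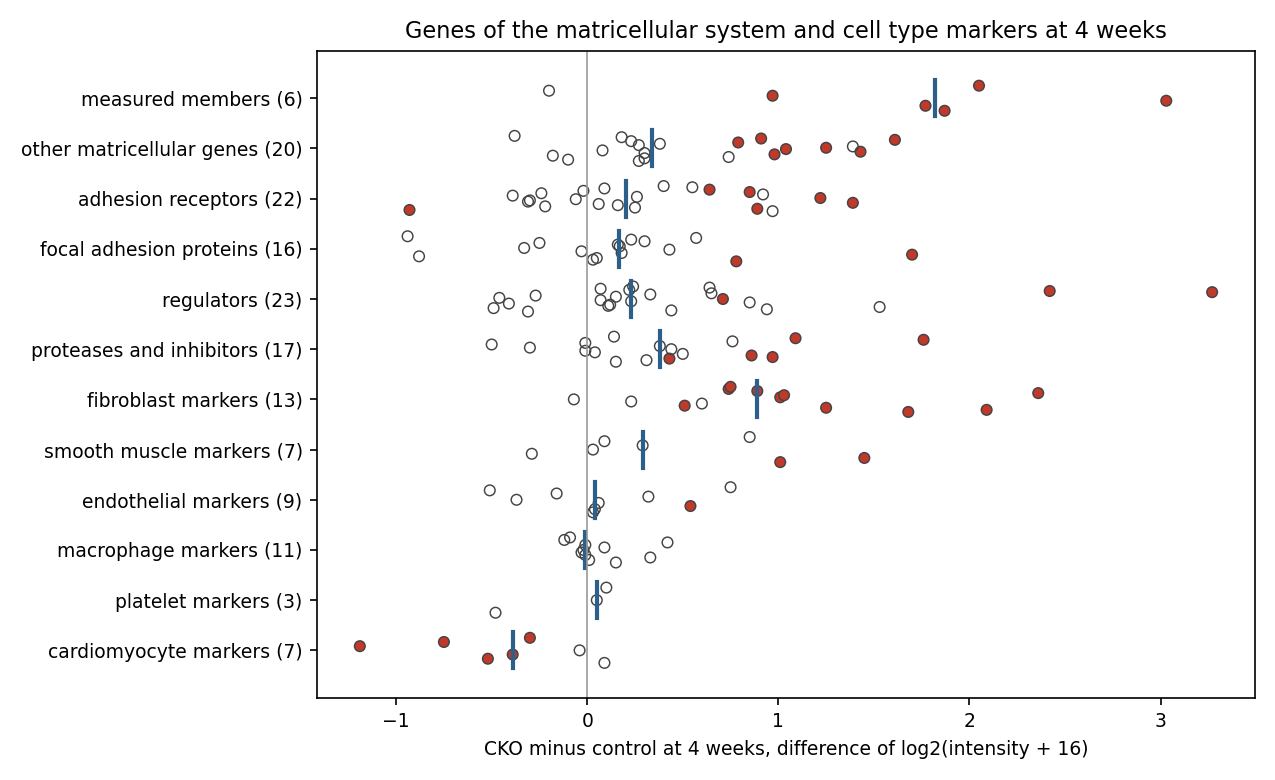
Log2 difference of CKO minus control at 4 weeks for each gene of the lists and for the measured members, with filled points for an adjusted p under 0.05, a bar at each list's median and the number of genes in brackets. The median bars of the other matricellular genes (0.34) and the fibroblast markers (0.89) lie to the right of 0, that of the macrophage markers (-0.01) close to it and that of the cardiomyocyte markers (-0.39) to its left, and single genes of most lists, Thbs2 among the members, lie on the other side.

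Markers of the heart's cell types moved beside these genes. Of 13 fibroblast markers 10 were higher and 0 lower in CKO hearts at 4 weeks, against 6.27% of all probe sets called, with a median of 0.89. Their summed intensity ran from 24310 to 29570 on CKO arrays against 12130 to 13480 on control arrays at 4 weeks, and from 17240 to 26300 against 16120 to 21530 at 2 weeks. Mfap5 (2.36 ± 0.24, adjusted p = 5.84e-05), Col1a1 (1.68 ± 0.22, 0.000383), Lum (1.01 ± 0.11, 0.000108) and Dcn (0.51 ± 0.08, 0.000973), all matrix genes themselves, had the smallest p-values. The part of fibroblast number in the differences of the members was not tested. Of 7 smooth muscle markers 2 were higher, Acta2 (1.01 ± 0.19, 0.00575), which activated fibroblasts are also known to express, and Cnn1 (1.45 ± 0.33, 0.0158). These too stand against 6.27% of all probe sets. With array set in the fit 3 were higher, against 22.2% of all probe sets. The third was Tagln (0.88 ± 0.25, 0.0175), at -0.17 within array set 1 and 1.45 within array set 2. The summed smooth muscle level was 6160 to 9982 on CKO arrays against 4656 to 5411 on control arrays at 4 weeks, with a list median of 0.29 that was -0.07 within array set 1 and 0.57 within array set 2. At 2 weeks the sums did not overlap either, 7646 to 9348 on CKO arrays against 5883 to 7197 on control arrays. None of these 7 markers was called at 2 weeks, with a median of 0.05 and Acta2 at 0.58 ± 0.20.

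Of 7 cardiomyocyte markers 0 were higher and 5 lower at 4 weeks, against 6.27% of all probe sets called, with a median of -0.39. Their sum was 46060 to 49420 on CKO arrays against 58220 to 61030 on control arrays at 4 weeks, and it overlapped at 2 weeks, 55210 to 59040 against 54640 to 60330. Tnni3 fell by 0.75 on the log2 scale (adjusted p = 5e-05), Mb by 0.52 and Ryr2 by 1.19. Of 11 macrophage markers 0 were called in either direction, with a median of -0.01 and sums of 2852 to 5205 on CKO arrays against 2861 to 3953 on control arrays. Of 9 endothelial markers 1 was higher, Eng (0.54 ± 0.14, 0.0314), against the same 6.27%, with a median of 0.04 that turned to -0.06 after quantile normalization. With array set in the fit 2 were higher, Eng and Vwf (0.81 ± 0.15, 0.000905), and 1 lower, Tie1 (-0.46 ± 0.15, 0.0404). In that fit 22.2% of all probe sets were called. Platelet markers, from cells that store thrombospondin, had 0 of 3 called and sums of 654.2 to 810.3 on CKO arrays against 659.8 to 827.6 on control arrays. Lymphocyte (5 measured, median 0.03), erythroid (3, 0.44), mesothelial (3, 0.23) and cartilage markers (3, 0.00) had 0 called at 4 weeks. The array sets divided some of these medians, 0.99 and -0.35 in array sets 1 and 2 for the erythroid and -0.76 and 0.45 for the mesothelial markers, and with array set in the fit 1 erythroid marker, Hba-a1, was higher (0.44 ± 0.14, adjusted p = 0.0292). None of these markers was at the array's lowest value on all arrays of a group.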

How the data were processed

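Per the labels' protocols, total heart RNA was extracted with Trizol, column-purified and biotin-labelled. The authors deposited a linear intensity for each probe set on each array, and how their software corrected and scaled it is not stated in those sources. Array medians ran from 173.7 to 216.8, and 81 to 191 probe sets per array stood at the lowest value of 0.95. The number of arrays limits the precision. The deposited scaling was kept, and values were used as log2(intensity + 16), a log2 scale computed here from the deposited intensities.

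All 12422 probe sets on 15 arrays were fitted with limma 3.58.1 in R 4.3.3 (lmFit, eBayes with an intensity trend, 1 coefficient per group, two-sided tests, Benjamini-Hochberg adjustment over all probe sets). Adjusted p-values are limma's, errors beside log2 differences are SE, and intervals cover 95%. A gene was read by its brightest probe set with 1 annotated symbol, and 10833 probe sets had 1 symbol, 396 several and 1193 none. The annotation can be old, and symbols were updated through gene IDs for 10817 probe sets. The labels do not say whether replicate arrays are separate mice, so p-values measure the spread between arrays, which may be technical. Any pair of arrays had at most 0.0322% equal values above the lowest one, so none was a duplicate.

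Array sets are 2 clusters by average linkage on Pearson's r over all probe sets. Members, lists and tests were chosen with earlier results of these data known. In each list the genes with the smallest p at 4 weeks (up to 4) were to be named, and for each member the 3 most correlated probe sets of other genes. The fits were also run on simulated data, and no result here rests on that run. Its array-set offsets were drawn with a spread smaller than the offsets of Postn, Fn1 and Ccn2, so it does not cover these genes. Alternatives changed the array set, scaling, pseudocount, dim filter, gene unit, inferred sex, spread model and sample-number block, and left out each array. The comparison of CKO at 4 weeks with control at 2 weeks and the number block within each age were added after the data were seen. Same-numbered CKO and control arrays deviated together at 2 weeks (r = 0.659, 0.586 and 0.845), and at 4 weeks in 2 of 3 cases (0.793, -0.519 and 0.473). The r was positive where such arrays share an array set and negative where they do not, so its sign followed the array set and not the number. A pairing by number beyond the array set was not tested. Promoter windows are RefSeq's on GRCm38.p6, and motifs were searched on both strands.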

Additional observations from a re-analysis of the deposited data

Results flagged for a closer look

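Among the CKO arrays at 2 weeks, 1 array was far below the others for Ccn2: replicate 3 read 986, against 1542 to 1584 on the other 3 arrays. Its gap to the nearest of them was 0.943 of the group's whole range. That array belongs to array set 1, as does replicate 4, which read 1542. A total of 14 groups of probe set values were examined for such an array, and chance alone is known to mark about 1 in 20. Without this array the 2-week difference of Ccn2 was 0.74, against 0.58 with it, and it was still not called.

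The effect of genotype on Tnc differed between the ages by a test of the difference itself. It was 1.87 ± 0.36 larger on the log2 scale at 4 than at 2 weeks for the brighter probe set (limma adjusted p = 0.0339) and 2.56 ± 0.53 larger for the dimmer one (adjusted p = 0.0488). Both probe sets are dim, and the probe sets read the same 15 samples, so they are not independent. As given above, the call of the brighter one was lost when any 1 of 11 arrays was left out. It was also lost with quantile normalization, median scaling or a pseudocount of 64, and the call of the dimmer one was lost with quantile normalization. With the array set as a block Postn, Fn1, Ccn2 and Sparc were called for this difference as well, so the call was not particular to Tnc.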

How the results depend on the processing

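At 4 weeks 5 genes were called higher under each alternative except the sample-number block, with 3 (Sparc at adjusted p = 0.104 and Fn1 at 0.0771 were lost), median scaling, with 4 (Sparc was lost), both dim filters, with 4 because they leave Tnc out, and single omitted arrays, with 4 to 5. The sample-number block pairs same-numbered arrays of all 4 groups, some of which deviated together and some oppositely, according to whether they share an array set. For the difference between the ages, 1 gene became 0 with quantile normalization, median scaling, a pseudocount of 64, both dim filters and the number block. It became 2 within array set 1 (which has 1 control array at each age, assumed to vary like the other groups), 4 with the replicate block within each age, and 5 under the array-set block (alone, with quantile normalization or with inferred sex) and within array set 2, and it was 0 to 1 with single arrays left out. For age in control hearts, 0 became 3, all lower, with the array set as a block (alone or with either addition) and within array set 2. For age in CKO hearts, 2 became 1 with median scaling and both dim filters, 0 with the replicate block, and 4 under the array-set block (alone or with either addition) and within array set 1, and it was 1 to 2 with single arrays left out. The cause was not tested, apart from the genes that the filters remove.

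Signs turned only for differences that were not called. At 2 weeks Postn (-0.13) became 0.08 with the array set as a block, 0.13 with inferred sex added, 0.42 within array set 2 and 0.20 with the replicate block within each age (-0.65 to 0.25 over single omitted arrays). Fn1 (-0.17) became 0.22 within array set 2, 0 with array set and sex, and 0.07 with the replicate block within each age (-0.45 to 0.07). Thbs2 (-0.11) became 0.10 within array set 2 and 0 with that replicate block (-0.20 to 0). Tnc (0.18) became -0.04 within array set 1, and Sparc (0.02) became -0.03 with median scaling (-0.20 to 0.17). The Thbs2 difference between ages (-0.09) became 0.09 within array set 1 (-0.20 to 0.04), and Ccn2 in ageing controls (0.21) ran from -0.09 to 0.45. The replicate block changed no other call. Dimness limits Tnc, and 3 to 5 arrays per group limit the rest.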
